A study of Rattus norvegicus with 28 samples.

Results

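TCDD, a chlorinated dioxin and the standard agonist of the aryl hydrocarbon receptor (AHR), was given at 0.01 nM to primary rat hepatocytes, and its effect was read on 4 of the 28 2-colour arrays of the series: those labelled TCDD 0.01 nM, which carry 2 dye orientations for each of 2 rats, A and B, both adult females of the Sprague-Dawley strain. Each of these arrays held RNA of the treated cells beside RNA of the same rat's cells given solvent alone. The cells had been cultured for 48 h on Matrigel with 0.1 uM dexamethasone before a treatment of 24 h in 0.1% DMSO, and the RNA of 3 dishes was pooled for each animal. The control arm therefore carried the same dexamethasone and the same DMSO. A further group at TCDD 1 nM and one of untreated cells without solvent, with 4 arrays each and read against DMSO RNA in the same way, serve for comparison. The labels do not say whether a single DMSO preparation served all arrays of a rat.

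AHR is a cytosolic receptor that moves to the nucleus when it binds dioxin-like compounds, pairs with ARNT and acts at DNA elements with the core GCGTG. Its best known targets encode xenobiotic-metabolising enzymes, foremost the cytochromes P450 of family 1, and in liver CYP1A1 is the classic marker of exposure while CYP1A2 is made mainly by hepatocytes. Other members of the battery are phase II enzymes such as NQO1 and UGT1A6, and TIPARP, which restrains the receptor.

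No promoter entry was found for Cyp1a1, the largest increase, so its sequence is not shown. Of the other cytochrome promoters, those of Cyp1a2 and Cyp1b1 are given. Cyp1a2 passed the test at 0.01 nM and Cyp1b1 did not, although it passed in the difference between the doses. The promoter of Entpd5, the third largest named increase, is shown as well. All are RefSeq sequences of build GRCr8 and run from 250 bases before the start site to 50 after it. Capitals mark the AHR core, GCGTG or its reverse complement CACGC, wherever it occurs.
Cyp1a2 (chr8:66978100-66978399, minus strand): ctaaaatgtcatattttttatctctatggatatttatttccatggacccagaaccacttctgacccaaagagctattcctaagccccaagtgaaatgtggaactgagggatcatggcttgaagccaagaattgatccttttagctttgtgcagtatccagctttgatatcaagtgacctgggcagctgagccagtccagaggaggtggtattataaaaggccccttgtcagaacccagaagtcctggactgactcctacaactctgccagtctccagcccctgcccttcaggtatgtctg
Entpd5 (chr6:109783072-109783371, minus strand): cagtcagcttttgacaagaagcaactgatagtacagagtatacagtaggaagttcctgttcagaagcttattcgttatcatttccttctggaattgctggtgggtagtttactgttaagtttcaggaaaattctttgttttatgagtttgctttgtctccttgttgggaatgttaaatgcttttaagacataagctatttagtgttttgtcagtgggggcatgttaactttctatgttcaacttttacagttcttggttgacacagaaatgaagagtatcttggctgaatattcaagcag
Cyp1b1 (chr6:21094315-21094614, plus strand): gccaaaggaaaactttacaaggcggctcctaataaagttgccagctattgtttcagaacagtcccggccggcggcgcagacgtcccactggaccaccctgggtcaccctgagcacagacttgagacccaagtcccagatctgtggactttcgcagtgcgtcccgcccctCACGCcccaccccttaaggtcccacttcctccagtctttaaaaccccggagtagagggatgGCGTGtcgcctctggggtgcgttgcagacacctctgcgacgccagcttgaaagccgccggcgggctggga
The windows of Cyp1a2 and Entpd5 hold no such letters, and that of Cyp1b1 holds 1 match on each strand. Of 33469 rat promoters of this length 29.7% hold at least 1 match. Among the battery genes, 10 of 12 measured members had an entry and 7 of these 10 held a match. A match in letters is not a binding site, and a window without one says nothing about sites elsewhere.

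The ratios of the arrays also varied with the position of a spot on the glass. Each slide was divided into 901 blocks of 10 rows by 10 columns, and a block was called uneven where the median log2 ratio of its spots lay more than 0.2 from 0. On the 2 arrays with TCDD RNA in red, 41 blocks lay below and 15 above in rat A, and 15 below and 0 above in rat B. On the 2 arrays with TCDD RNA in green there were 0 such blocks in either direction. The 2 orientations were also read on different days of Feature Extraction, the software reading of the scans, so that dye and day cannot be told apart. In 6 blocks that lay below on both red arrays, the median raw green signal, which is the DMSO RNA there, was 359 and 353.9 in rats A and B, against 309 and 317.9 over all blocks of the same slides. The red signal in these 6 blocks was 350.6 and 356.7, against 358.3 and 371.5 over all blocks. The green arrays gave median log2 ratios of -0.01 in both rats in the same place. In all, 65 blocks were uneven on an array of TCDD 0.01 nM, and 7.09% of the genes tested were read from a spot inside them. Counts below are given with and without the probes in these blocks, and 170 of the 2468 genes concerned stayed in the fit without them through another probe. The blocks were defined on the TCDD 0.01 nM arrays alone. On the red arrays of TCDD 1 nM, 19 blocks lay below and 0 above in rat A, and 1 below and 3 above in rat B. On those of untreated cells these were 19 and 8 in rat A and 11 and 1 in rat B. Probes in blocks uneven on those arrays only stayed in.

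At 0.01 nM TCDD the hepatocytes showed a small response led by the CYP1A genes. Cyp1a1 rose 3.27-fold, taken as a lower bound since its spot was saturated, and Cyp1a2 rose 1.90-fold. Every other increase that passed was under 1.5-fold. By limma, with 1 value for each rat and a Benjamini-Hochberg adjusted p under 0.05, 34 of 34803 genes were higher (0.0977%) and 124 were lower (0.356%) than in DMSO cells. Of the 124 genes called lower, 112 lay in uneven blocks, as did 4 of the 34 called higher. Without the probes in those blocks, 1 of 32505 genes passed in either direction (0.00308%), and this was Cyp1a1. At an unadjusted p under 0.05 that fit still held 1385 genes that were higher and 1274 that were lower. With rat A left out 12 genes were higher and 234 lower, and with rat B left out 46 and 558. Only 2 animals bear on each value, and the test borrows the spread between rats from all 7 groups of the series.

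**Figure D1:**
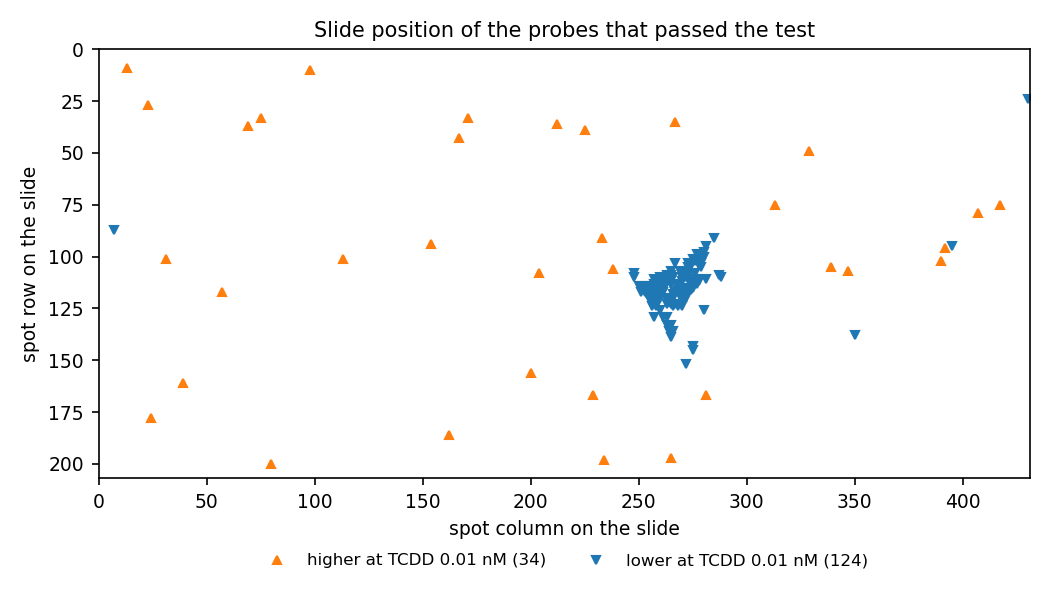
Row and column on the slide of the probes of the 158 genes that passed the test at TCDD 0.01 nM; upward triangles are the 34 genes called higher and downward triangles the 124 called lower. Between their quartiles the lower calls fell within rows 109 to 120 and columns 260 to 273 of a slide of 206 rows and 430 columns, whereas the higher calls lay across the whole slide.

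Cyp1a1, which encodes the inducible cytochrome P450 that oxidises aromatic hydrocarbons, had log2 ratios of TCDD over DMSO of 1.70 and 2.02 in rat A and 1.47 and 1.66 in rat B, with TCDD RNA in red and then in green. All 4 arrays were far above 0. The mean was 1.71 ± 0.11 (SE, n = 2 rats; limma adjusted p = 0.000229). Its spot was saturated in TCDD RNA on all 4 arrays and in DMSO RNA on 0 of 4, with mean log2 signals of 16.26 in TCDD RNA and 14.55 in DMSO RNA. Saturation caps the TCDD signal, so the 3.27-fold increase is taken as a lower bound. What normalisation does to a saturated spot was not tested. Without the probes in uneven blocks its adjusted p was 0.00281.

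Cyp1a2, which encodes the cytochrome P450 that metabolises caffeine and aromatic amines, had normalised signals of 34948 and 32003 in TCDD RNA of rat A and 23653 and 25180 in TCDD RNA of rat B, against 17465, 15865, 13199 and 14055 in DMSO RNA on the same arrays. Every TCDD signal exceeded every DMSO signal. The log2 ratios were 1.00 and 1.01 in rat A and 0.84 in both orientations of rat B, and their mean was 0.92 ± 0.12 (SE, n = 2 rats; limma adjusted p = 0.00771). A dimmer second probe of the gene gave 0.85 ± 0.18 and did not pass when every probe was tested on its own (limma adjusted p = 0.0973). Without the probes in uneven blocks the adjusted p of Cyp1a2 was 0.063, while its unadjusted limma p was 1.66e-05, against 1.64e-05 with them. The estimate and its error were thus nearly untouched, and the call was lost in the adjustment, which ranks each gene among the others tested.

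The other measured genes of the AHR battery did not pass. Of the 12 measured, 2 were called higher, beside 0.0977% of all genes, and 0 lower, and the median log2 ratio was 0.17, against 0.00 over all genes tested. Nqo1, a quinone reductase, had ratios between 0.46 and 0.57 on the 4 arrays and a mean of 0.53 ± 0.18 (limma adjusted p = 0.308), where the error comes from the wider spread between rats in other groups. Nfe2l2, which encodes the oxidative stress regulator NRF2, ranged between 0.26 and 0.71 with a mean of 0.48 ± 0.09 (limma adjusted p = 0.0698). Ugt1a6, a phenol glucuronosyltransferase, ranged between 0.34 and 0.53 with a mean of 0.42 ± 0.18 (limma adjusted p = 0.423). All 3 genes were above 0 on all 4 arrays without passing. In untreated cells read against DMSO, Nfe2l2 was at 0.32, with 0.46 and 0.60 in rat A and 0.04 and 0.19 in rat B. Its difference of TCDD 0.01 nM minus untreated was 0.16 ± 0.13 (limma adjusted p = 0.933). Nqo1 and Ugt1a6 were at -0.09 and -0.14 in untreated cells. Tiparp, the mono-ADP-ribosyltransferase that limits AHR signalling, had a mean of 0.25 ± 0.25 and lay between 0.20 and 0.32 on the arrays. Aldh3a1, an aldehyde dehydrogenase, was at 0.10 ± 0.36 and Ugdh, which makes UDP-glucuronic acid, at 0.07 ± 0.09. Slc7a5, an amino acid transporter, Cyp2s1, an extrahepatic cytochrome, and Gsta2, a glutathione transferase, had means of 0.04, 0.02 and -0.05. Cyp1b1, a cytochrome P450 of mainly extrahepatic tissue, had a mean of -0.06 ± 0.15, and its probe lies in an uneven block, where the array of rat B with TCDD RNA in red gave -0.53 and the other 3 gave between -0.02 and 0.17. A second Cyp1b1 probe outside such blocks gave -0.04.

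**Figure D2:**
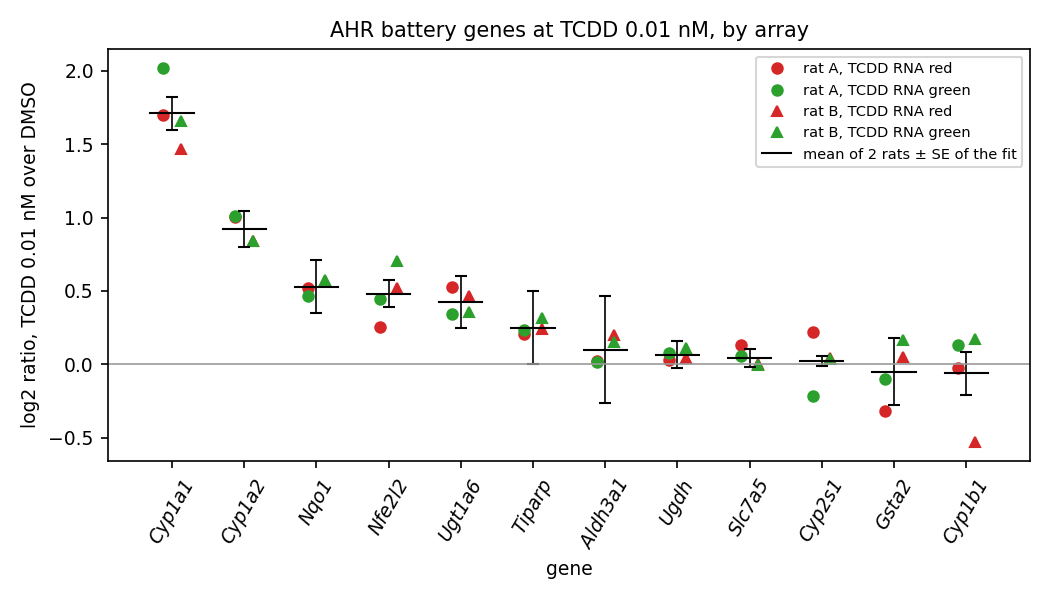
Log2 ratio of TCDD 0.01 nM over DMSO for the 12 measured AHR battery genes, with 1 point per array (circles rat A, triangles rat B; red and green points for the dye of the TCDD RNA) and the mean of 2 rats with the SE of the fit. Cyp1a1, between 1.47 and 2.02, and Cyp1a2, between 0.84 and 1.01, stand above the others on all 4 arrays.

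None of the 7 measured genes of the receptor complex passed. Ahr itself had a mean of 0.12 ± 0.05 from a probe in an uneven block, and Arnt, its DNA-binding partner, 0.00 ± 0.04. Arnt2, the related partner, was at 0.05 ± 0.05. The chaperone genes Hsp90aa1, Hsp90ab1 and Ptges3 had means of 0.09, 0.09 and 0.19, with limma adjusted p-values of 0.964, 0.85 and 0.787. The dimmer probes of Hsp90aa1 had means between -0.05 and -0.03, and a second Hsp90ab1 probe was at 0.12.

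Beyond the cytochromes, 6 named genes were called higher with a positive ratio on every array. Entpd5, which encodes a nucleoside diphosphatase of the endoplasmic reticulum, had signals of 8076 and 9233 in TCDD RNA of rat A and 4393 and 4926 in TCDD RNA of rat B, against 5618, 5826, 3286 and 3411 in DMSO RNA on the same arrays. Within each array TCDD exceeded DMSO, although rat B's TCDD signals lay below rat A's DMSO signals. The log2 ratio was 0.53 ± 0.07 (SE, n = 2 rats; limma adjusted p = 0.00998), with 0.52 and 0.42 on the red arrays and 0.66 and 0.53 on the green arrays of rats A and B. Its spot lies in an uneven block of a red array, and the ratio was as large on the green arrays, where no block was uneven. In a fit restricted to the 3 groups read on the same days, Cyp1a1 and Entpd5 were the only 2 genes called higher, each with a limma adjusted p of 0.0456.

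The other named increases were between 0.21 and 0.29 on the log2 scale. Ppp3ca, a catalytic subunit of calcineurin, rose by 0.29 ± 0.05 (limma adjusted p = 0.049996) and Ero1a, an oxidoreductin of the endoplasmic reticulum, by 0.28 ± 0.05 (limma adjusted p = 0.0401). Ero1a had a second probe at 0.20 that did not pass, and with the rat as a block its limma adjusted p was 0.0558. Hsd17b2, which inactivates oestradiol and testosterone, rose by 0.25 ± 0.04 (limma adjusted p = 0.0102). Myh10, a non-muscle myosin heavy chain, rose by 0.25 ± 0.04 (limma adjusted p = 0.0112) on its brightest probe, whereas its other 3 probes had means between -0.05 and 0.06. Sik1, a kinase that restrains CREB signalling, rose by 0.21 ± 0.03 (limma adjusted p = 0.0269). With rat A left out, Cyp1a1 alone of the 8 named increases passed, and the others had limma adjusted p-values between 0.114 for Cyp1a2 and 0.521 for Ero1a. With rat B left out 7 of 8 passed, all but Ppp3ca (limma adjusted p = 0.178). The remaining 26 of the 34 higher calls were expressed sequence tags or predicted transcripts without a gene symbol, with log2 ratios between 0.19 and 0.51. With the rat as a block, which the labels warrant since the groups share both animals, 59 genes were called higher.

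The lower calls were for the most part confined to 1 dye orientation. Their median log2 ratio was -0.71 on the red arrays and -0.01 on the green arrays, against 0.28 and 0.34 for the higher calls. The mean of the 2 green arrays lay within 0.2 of 0 for 121 of the 124 genes. They were also dim: the median over them of the mean log2 signal was 6.25, beside 6.73 for all genes and 10.5 for the higher calls, and 67 of the 124 were well above background in both RNAs on all 4 arrays. Gpr141, an orphan receptor, gave -0.90 and -0.94 on the red arrays of rats A and B and -0.09 and -0.13 on the green arrays (mean -0.51 ± 0.03, limma adjusted p = 0.000133). Phka1, a regulatory subunit of phosphorylase kinase, Kif5a, a neuronal kinesin, and Bfsp1, a lens filament protein, followed the same pattern with means of -0.49, -0.43 and -0.42. The decreases of Vmo1, Slc39a11, Atad5, Ddx51, Mmp3, Trhde and Meis3 came from probes in uneven blocks as well, with means between -0.39 and -0.20, and Aadacl4fm1, just outside one, was at -0.27 with -0.01 and -0.04 on the green arrays. A second Trhde probe outside the blocks was at 0.03.

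Of 12 lower calls outside uneven blocks, 3 were below -0.2 on every array. Luc7l3, a splicing factor related to yeast LUC7, had -0.57 and -0.39 in rat A and -0.35 and -0.32 in rat B, and fell by 0.41 ± 0.06 on the log2 scale (limma adjusted p = 0.0119). Rcan1, an inhibitor of calcineurin, lay between -0.27 and -0.23 on all 4 arrays and fell by 0.24 ± 0.04 (limma adjusted p = 0.0273). The third is an expressed sequence tag without a symbol. For Luc7l3 and Rcan1 the limma adjusted p without the probes in uneven blocks was 0.063 and 0.115, and with rat A left out it was 0.211 and 0.262. Rcan1 did not pass with rat B left out either (limma adjusted p = 0.0856). The other 9 had mean ratios between -0.08 and 0.03 on the green arrays.

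**Figure D3:**
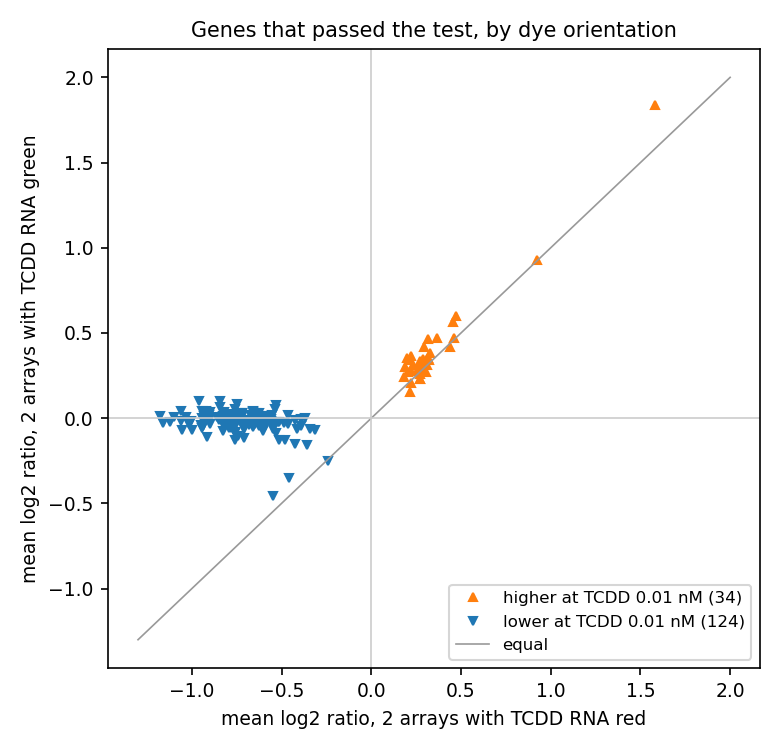
Mean log2 ratio of the 2 arrays with TCDD RNA in red (horizontal) and of the 2 with TCDD RNA in green (vertical) for the 158 genes that passed, with the line of equal ratios. The 34 higher calls follow the line, whereas 121 of the 124 lower calls sit within 0.2 of 0 on the vertical axis.

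No other gene list held a call at this dose. Across 25 further lists of metabolic, stress, signalling and cell type genes, 461 genes were measured and limma called 0, while 46 were higher and 19 lower at an unadjusted p under 0.05 (9.98% and 4.12%, beside 4.52% and 6.01% of all genes tested). The list medians lay between -0.10 and 0.11 on the log2 scale. Cyp7a1, the rate-limiting enzyme of bile acid synthesis, was the lowest of all genes tested: its ratios were -0.92 and -1.01 in rat A and -0.80 and -0.92 in rat B, with a mean of -0.91 ± 0.35 (limma adjusted p = 0.374). All 4 arrays lay well below 0, but the value did not pass with the error taken over all groups, and a fit of TCDD 0.01 nM alone gave a limma adjusted p of 0.0396. Fasn, the fatty acid synthase, was at -0.58 ± 0.29 (limma adjusted p = 0.547), with -0.75 and -0.83 in rat A and -0.34 and -0.40 in rat B. Txnrd1, thioredoxin reductase and an NRF2 target, was at 0.20 ± 0.06 (limma adjusted p = 0.222). Abcb1a, a drug efflux transporter among the CAR and PXR targets, was at 0.31 ± 0.07 (limma adjusted p = 0.146). Stat3, the transcription factor of the acute phase, was at 0.21 ± 0.04 (limma adjusted p = 0.0867). Sult2a6, a hydroxysteroid sulfotransferase, was at -0.25 ± 0.09 (limma adjusted p = 0.327).

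The hepatocyte label was checked against marker genes. All 27 measured hepatocyte genes, among them all 8 defining markers (Alb, Ttr, Tf, Apoa1, Apob, Hnf4a, Cps1 and Tat), were well above background in both RNAs on all 4 arrays. Their median log2 ratio was 0.10, with 22 of 27 above 0, beside 17863 of 34803 genes tested, and 0 called. The spots of Apoa1 and Apoc3, both on this list, were saturated in each RNA on 2 and 3 of 4 arrays. Their ratios were below 0 on the red arrays and above 0 on the green arrays. A second Apoa1 probe was at -0.09. Defining markers of other liver cells were detected too: 4 of 4 for Kupffer cells, 4 of 4 for stellate cells, 3 of 4 for endothelium and 2 of 4 for bile duct cells. The Kupffer cell and leukocyte list had a median of -0.10 with 2 of its 18 genes above 0, and its summed signal per array ranged between 13250 and 19010 in TCDD RNA and between 14570 and 19790 in DMSO RNA. Whether fewer cells of a type or less RNA per cell lies behind such a value cannot be told apart in pooled RNA, and its part in the results was not tested.

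Set against TCDD 1 nM, the lower dose gave a far smaller response. In the difference of 1 nM minus 0.01 nM, 485 genes were higher (1.39%) and 819 lower (2.35%) of 34801 tested at the higher dose. Without the probes in blocks uneven on the 0.01 nM arrays these were 310 and 726 of 32503. Both doses were read against DMSO RNA of the same rats, so their ratios share that side. Among the battery genes 5 were called higher at 1 nM. Cyp1b1 was at -0.06 at 0.01 nM and 3.93 at 1 nM, and its difference of 3.99 ± 0.21 passed (limma adjusted p = 3.18e-05). Its spot was well above background in TCDD RNA on 2 of 4 arrays at the lower dose, and the second probe of the gene was at -0.04 and 1.62. Aldh3a1 was at 0.10 and 2.28 (difference 2.19 ± 0.51, limma adjusted p = 0.0464), Tiparp at 0.25 and 1.84 (1.58 ± 0.35, 0.034), Nfe2l2 at 0.48 and 1.25 (0.77 ± 0.13, 0.0111) and Cyp1a2 at 0.92 and 1.82 (0.89 ± 0.17, 0.0187). The Cyp1a2 spot was saturated on 3 of the 4 arrays of 1 nM, which caps the raw signal of the treated RNA there. The effect of this on the normalised difference was not tested. Cyp1a1 was at 1.71 and 1.70 and saturated on all 4 arrays of both doses, so no difference between the doses can be read from it, and 1 rat alone has a value at 1 nM. The differences of Nqo1 (1.01 ± 0.26, limma adjusted p = 0.0625) and Ugt1a6 (0.38 ± 0.25, 0.501) did not pass. With rat A of 0.01 nM left out, 303 genes were higher and 252 lower, and of the 5 battery genes Cyp1b1 alone passed, with limma adjusted p-values between 0.0773 and 0.239 for the others. With rat B left out Nfe2l2 passed as well. Without the probes in uneven blocks the limma adjusted p of Aldh3a1 was 0.0505.

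Genes outside the battery differed between the doses as well. Ereg and Areg, which encode the EGF receptor ligands epiregulin and amphiregulin, were at 0.01 ± 0.18 and 0.19 ± 0.23 at 0.01 nM and at 2.79 and 2.47 at 1 nM, and both differences passed (limma adjusted p = 0.000324 and 0.00408). The Ereg spot was well above background in TCDD RNA on 2 of 4 arrays at the lower dose. In the other direction Tmem255b, a membrane protein, was at 0.09 and -1.81 at 0.01 and 1 nM, and Emp1, an epithelial membrane protein, at 0.17 and -1.60. A second Emp1 probe outside uneven blocks was at 0.06 and -0.59. Zfp354a, a zinc finger protein, was at 0.00 and -1.69, and Onecut1, a liver transcription factor, at 0.15 and -1.49. Acly, the citrate lyase that feeds lipid synthesis, read in an uneven block, was at -0.22 and -1.87. None of these 7 genes passed against DMSO at 0.01 nM. For each, all 4 arrays of 1 nM lay beyond all 4 of 0.01 nM, which was a condition for naming them. Of the 25 lists that held no call at 0.01 nM, 18 had members called lower in the difference and 6 had members called higher. The largest counts were 12 of 24 bile acid and transport genes, 12 of 23 glucose genes and 11 of 27 fatty acid oxidation genes lower, beside 2.35% of all genes. The cholesterol synthesis, cell cycle and glutathione transferase lists held no such call either way. The lists were chosen with earlier results of these data known, so these shares are no separate result.

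A few genes did not follow the order of the doses. Entpd5 was at 0.53 at 0.01 nM and 0.05 at 1 nM, where its 4 arrays ranged between -0.01 and 0.15, and the difference of -0.48 ± 0.10 passed (limma adjusted p = 0.0317). With either rat left out that difference did not pass (limma adjusted p = 0.226 without rat A and 0.0612 without rat B). The 4 arrays of 0.01 nM, between 0.42 and 0.66, did not overlap those of 1 nM. Sik1 was at 0.21 and -0.18 (difference -0.40 ± 0.05, limma adjusted p = 0.00192), and it remained called without the probes in uneven blocks (0.00214). By contrast Hsd17b2 was at 0.25 and 0.69 (0.44 ± 0.05, limma adjusted p = 0.00129) and Rcan1 at -0.24 and -0.53 (-0.28 ± 0.06, limma adjusted p = 0.0232, and 0.11 or 0.0921 with rat A or rat B left out). Of the 34 genes higher at 0.01 nM, 5 were higher still and 4 lower at 1 nM by the test of the difference. The same test called 108 of the 124 lower calls higher at 1 nM, and 101 of these lie in uneven blocks. Over all genes it called 1.39% higher and 2.35% lower. The difference subtracts the 0.01 nM values by which these genes were called, so such counts are no separate result. Krt76, Gpr141, Kif5a and Phka1, all in uneven blocks, had differences of 0.54, 0.51, 0.50 and 0.49. Over DMSO at 1 nM they were at 0.03, -0.01, 0.07 and 0.00.

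**Figure D4:**
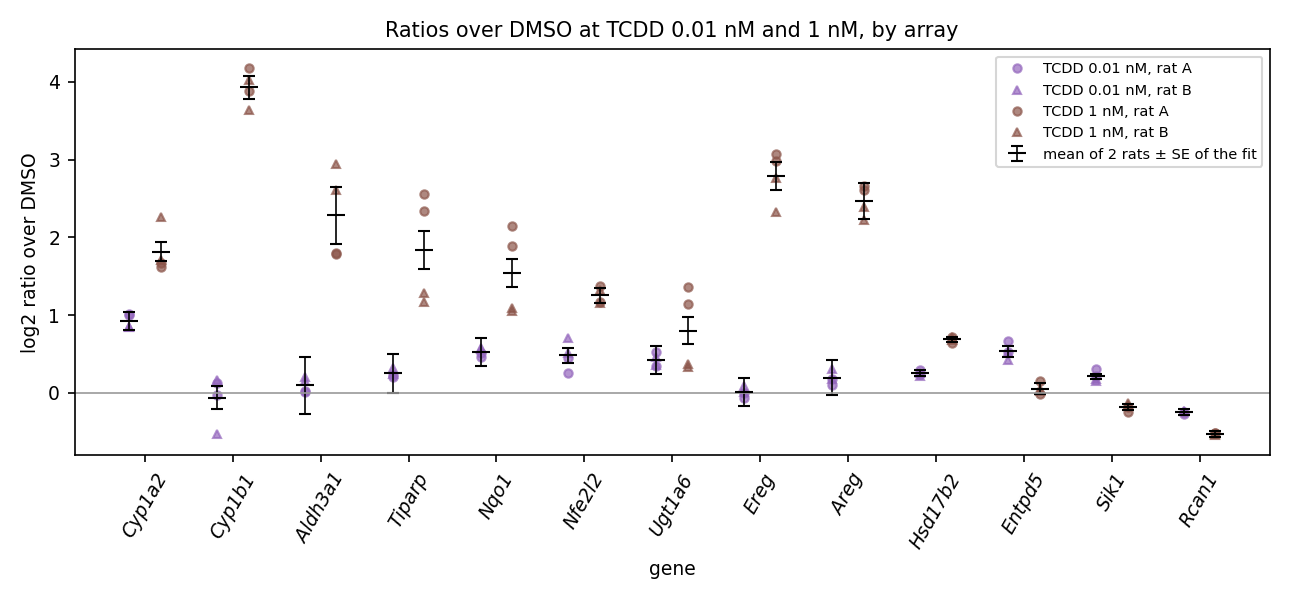
Log2 ratio over DMSO at TCDD 0.01 nM (left of each pair) and 1 nM (right) for 13 genes, with 1 point per array (circles rat A, triangles rat B) and the mean of 2 rats with the SE of the fit. Cyp1b1 and Ereg lie near 0 at the lower dose and at 3.93 and 2.79 at the higher, whereas Entpd5 is at 0.53 at the lower dose and 0.05 at the higher.

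Against untreated cells, which had no DMSO, 61 of 34803 genes differed (0.175%), 7 higher and 54 lower, and 54 of the 61 lay in uneven blocks. With rat A left out these were 7 and 117, and with rat B left out 14 and 322. Without the probes in those blocks 0 of 32505 genes passed with limma, while 1833 had an unadjusted p under 0.05. Cyp1a1 differed from untreated cells by 1.65 ± 0.16 (limma adjusted p = 0.00598), taken as a lower bound because of the saturated spot. Its ratios in untreated cells, between -0.02 and 0.17, did not overlap those at 0.01 nM, as the naming in this comparison required. In the fit without the uneven blocks its limma adjusted p was 0.0794, and in the fit of the 3 groups of the same days it was 0.264. Myh10 differed by 0.33 ± 0.05 and Dsp, the desmosomal protein desmoplakin, by 0.29 ± 0.04 (limma adjusted p = 0.0397 for both), and Nat8, an N-acetyltransferase read in an uneven block, by -0.51 ± 0.08 (limma adjusted p = 0.0419). With the rat as a block these 3 had limma adjusted p-values of 0.0608, 0.0608 and 0.067. With rat A left out none of the 3 passed (limma adjusted p = 0.137, 0.0759 and 0.0526), and with rat B left out Myh10 alone did. Gpr141 and Atad5, both in uneven blocks, were lower than in untreated cells by 0.48 and 0.34. Some increases over DMSO were also present in untreated cells: Hsd17b2 was at 0.25 with TCDD and 0.22 in untreated cells, a difference of 0.04 ± 0.05 (limma adjusted p = 0.992), and Ppp3ca was at 0.29 and 0.20. The difference of Cyp1a2, 0.86 ± 0.17, did not pass (limma adjusted p = 0.158), although no array of the groups overlapped.

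The lower doses of the 2 furans of the series stand at other concentrations and were read on other days, so their values are given side by side without a test. The mean log2 ratio of Cyp1a1 over DMSO was 1.71 at TCDD 0.01 nM, 1.24 at TCDF 0.1 nM and 0.70 at PeCDF 0.02 nM, with the spot saturated in treated RNA on 4, 3 and 1 of 4 arrays. Cyp1a2 was at 0.92, 0.73 and 0.29 in the same order.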

How the data were processed

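Per the file headers, the authors' scanner files give mean spot signals and median local backgrounds as intensity (Alexa555 is the green channel, Alexa647 the red one), and a deposited log ratio in log10 of red over green. In the authors' deposited series table the same log10 ratio has the DMSO RNA below and the other RNA above; the largest gap to the scanner value was 4.995e-06. The headers name Agilent Feature Extraction A.7.5.1, and the submitters' processing notes 9.1.

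Intensities were read with R 4.3.3, corrected with normexp (offset 50) and normalised by loess within each array in limma 3.58.1, with 2256 control spots at weight 0 and marked outlier spots left out (0.0921% of spots). Ratios were turned to test over DMSO and the dye-swap pair of a rat averaged, which leaves 14 values in 7 groups. A probe stayed in if the scanner software marked it well above background in every 1 of the 4 arrays of a group, in its test RNA, or in DMSO RNA on at least 14 arrays, and the brightest probe stood for a gene, which left 34803 genes. Of 41012 probes 22436 had no name in the RefSeq tables. Calls are limma p-values under 0.05 after Benjamini-Hochberg adjustment over all genes. The code was tested on simulated data. Median signals on the 4 arrays were between 285.4 and 371.1 in TCDD RNA and between 310.6 and 371.5 in DMSO RNA, and the number of arrays limits the precision. P-values of the main fit rest on the spread between the 2 rats within a group, pooled over all 7 groups. They do not measure the spread of the TCDD group alone.

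The labels give the groups the same 2 rats, so equal letters pair the values; deviations of TCDD 0.01 nM correlated with those of other groups between -0.0968 and 0.228. Genes to name were drawn from the 15 largest changes each way with a symbol (placeholder symbols left out) and 1 sign on all arrays, the receptor battery and complex, of other lists the called members or the 2 of smallest p, and up to 5 genes each way for the other comparisons. Members and lists were chosen with earlier results of these data known. Uneven blocks held at least 20 spots. The value of 1 gene of the receptor complex is not reported here.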

Additional observations from a re-analysis of the deposited data

Results flagged for a closer look

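Among 97 named genes, Dixon's test at its 95% critical value picked out a single array of TCDD 0.01 nM for 2, where chance alone picks about 1 in 20. Ccl4, a chemokine, was at -0.88 on the array of rat A with TCDD RNA in red, against a median of -0.07 on the other 3. Mcm5, a replication licensing factor, was at -0.80 on the same array, against -0.06. Both probes lie in blocks that were uneven on at least 1 array of TCDD 0.01 nM, and the part of the blocks in these values was not tested.

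The difference of TCDD 1 nM minus 0.01 nM passed the test for several named genes. The values were 3.99 for Cyp1b1, 2.78 for Ereg, 2.27 for Areg, 2.19 for Aldh3a1, 1.58 for Tiparp, 0.89 for Cyp1a2 and 0.77 for Nfe2l2 on the log2 scale. For 4 genes called lower at 0.01 nM, all read in uneven blocks, they were 0.54 for Krt76, 0.51 for Gpr141, 0.50 for Kif5a and 0.49 for Phka1. They were negative for Tmem255b (-1.90), Emp1 (-1.76), Zfp354a (-1.69), Acly (-1.65), Onecut1 (-1.63), Entpd5 (-0.48), Sik1 (-0.40) and Rcan1 (-0.28). The probes of Cyp1b1, Acly and Entpd5 also lie in uneven blocks. The difference of TCDD 0.01 nM minus untreated passed for Cyp1a1 (1.65, taken as a lower bound since the spot was saturated), Myh10 (0.33), Dsp (0.29), Nat8 (-0.51), Gpr141 (-0.48) and Atad5 (-0.34), the last 3 read in uneven blocks.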

How the results depend on the processing

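Counts here are genes higher and then lower by limma. At TCDD 0.01 nM against DMSO the 34 and 124 genes became 7 and 102 with the log ratio of the scanner files, 7 and 103 with the deposited series values, and 27 and 62 with a stricter filter on dim probes. They became 59 and 129 with the animal as a replicate block, 2 and 12 with the groups of the same days only, 1 and 1 with the group alone, 457 and 294 over single arrays with a dye term and the dye-swap pair as a random block, and 304 and 256 with the day as a random block. In each comparison the fit with the day as a random block counts the 2 arrays of a dye-swap pair as separate replicates. At an adjusted p under 0.01 the counts of the main fit were 8 and 78, and under 0.1 they were 86 and 196. With 1 rat left out they ranged between 12 and 46 higher and between 234 and 558 lower, where the remaining rat is assumed to vary like the rats of the other groups. Chosen after seeing the data, the first day alone (test RNA red) gave 9 and 96, the second day alone (test RNA green) 50 and 4, and leaving out probes in uneven blocks 1 and 0. Cyp1a1 passed in all 17 alternatives that gave it a value, with adjusted p up to 0.0456, and Cyp1a2 in 13 of 18.

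For TCDD 1 nM minus 0.01 nM the 485 and 819 genes became 252 and 483 (scanner log ratio), 246 and 474 (series values), 532 and 498 (no background correction), 214 and 489 (same days), 1463 and 2265 (single arrays with dye term), 2210 and 2929 (day as random block), 104 and 194 (first day), 307 and 753 (second day), 310 and 726 (without uneven blocks), 143 and 294 (adjusted p under 0.01) and 896 and 1261 (under 0.1), with ranges between 303 and 716 and between 252 and 547 with 1 rat left out. For TCDD 0.01 nM minus untreated the 7 and 54 became 11 and 67 (no background correction), 1 and 14 (stricter filter), 79 and 74 (single arrays with dye term), 187 and 232 (day as random block), 1 and 17 (under 0.01) and 13 and 69 (under 0.1), and 0 and 0 with the same days, either day alone or without uneven blocks. In those 4 the genes at an unadjusted p under 0.05 were 747 and 1016 (same days), 513 and 847 (first day), 844 and 876 (second day) and 1019 and 814 (without uneven blocks). With 1 rat left out they ranged between 7 and 14 and between 117 and 322.

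Among results that passed in the main fit or in the alternative, the sign of Trhde turned without uneven blocks (0.0346, from another probe). That of Krt76 turned on the second day alone (0.0406 against DMSO and -0.0293 between the doses), and that of Apoc3 on the first day alone (-0.70). Among results that passed in neither, signs turned in 35 pairs of a named gene and an alternative against DMSO, and in 9 between the doses. The cause was not tested. The Apoc3 spot was saturated in TCDD RNA and in DMSO RNA on 3 of 4 arrays each, so its sign on 1 orientation cannot be read. The replicate block changed the calls of Ero1a, Myh10, Dsp and Nat8 given above and, of the battery genes between the doses, that of Gsta2 (0.95, adjusted p = 0.0196), and no other call named here. Saturation limits Cyp1a1, Apoc3 and Apoa1, and at 1 nM Cyp1a2 as well. Signal near background limits the dim probes of the uneven blocks.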
